A study of Mus musculus with 15 samples.

Results

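The comparison of postnatal day 14 (P14) with postnatal day 7 (P7) used 6 of the 15 mouse RNA-seq libraries of the series, 3 of each age, chosen by the age in their titles. All 6 were made from cerebellar granule neuron precursors of wild-type mice, purified from cerebellum by Percoll fractionation and lysed at once in Trizol. Poly(A) RNA was sequenced as TruSeq v2 libraries on an Illumina HiSeq instrument. The groups differ in age only, as far as the labels go. The labels used here give no strain, sex or pooling of animals, and replicates are not tied to separate animals. The p-values therefore measure the spread between the libraries in the fit, all 15 in the main one, and not a spread between animals. Percoll separates cells by density and not by a lineage marker, so other cerebellar cells can be present. The other 9 libraries (E15.5, P1 and medulloblastoma, 3 each) entered the fit to help estimate the spread between replicates. They thereby also entered the count filter and the scaling.

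Granule neuron precursors divide in the external layer of the young cerebellum, driven by Sonic hedgehog that Purkinje cells release. Hedgehog binding to Ptch1 frees Smo, which activates the Gli factors, and these raise cyclin D and Mycn, so that cells pass from G1 into S phase under E2F control. Precursors then leave the cycle, extend axons, migrate inward along Bergmann glia and become granule neurons, which are recognised by receptors such as the GABA-A alpha 6 subunit. P7 lies in the time of rapid division, and by P14 the external layer is thinning. In RNA from many cells, fewer cells of a type and less RNA per cell cannot be told apart.

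Promoters of genes that fell or rose between the ages are shown first, because the cell cycle lists below moved together and short promoter motifs are known for them. The letters searched were TTTGAA for the cell cycle genes homology region (CHR), CCAAT for the CCAAT box, and TTTGGCGC or TTTCCCGC for E2F, on both strands and whether or not matches overlapped. CHR and CCAAT letters are known from promoters of mitotic genes and E2F letters from those of replication genes. Each sequence runs 5′ to 3′ from 250 bases before to 50 bases after the gene's start, from RefSeq in GRCm38.p6, with matches in capitals. Mki67 and Sgo1 are mitotic genes, Chaf1b and Mcm6 act in replication, and Gabra6 is a gene of mature granule neurons. Mcm6 was added after its matches were seen, and Tpx2 has no entry in the table used.
Mki67 (chr7:135716330-135716629, minus strand): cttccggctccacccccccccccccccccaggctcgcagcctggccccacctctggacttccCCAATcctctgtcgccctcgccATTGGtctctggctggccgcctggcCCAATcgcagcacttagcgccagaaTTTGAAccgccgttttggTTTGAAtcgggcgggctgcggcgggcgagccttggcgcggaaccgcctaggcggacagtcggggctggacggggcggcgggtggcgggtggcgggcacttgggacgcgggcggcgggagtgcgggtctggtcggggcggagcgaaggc
Sgo1 (chr17:53689266-53689565, minus strand): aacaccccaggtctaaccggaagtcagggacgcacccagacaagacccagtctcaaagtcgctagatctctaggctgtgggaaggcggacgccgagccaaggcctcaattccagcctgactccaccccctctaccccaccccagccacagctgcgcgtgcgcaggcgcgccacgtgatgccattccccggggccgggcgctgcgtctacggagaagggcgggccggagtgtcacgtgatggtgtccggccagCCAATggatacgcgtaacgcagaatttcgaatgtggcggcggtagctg
Chaf1b (chr16:93883651-93883950, plus strand): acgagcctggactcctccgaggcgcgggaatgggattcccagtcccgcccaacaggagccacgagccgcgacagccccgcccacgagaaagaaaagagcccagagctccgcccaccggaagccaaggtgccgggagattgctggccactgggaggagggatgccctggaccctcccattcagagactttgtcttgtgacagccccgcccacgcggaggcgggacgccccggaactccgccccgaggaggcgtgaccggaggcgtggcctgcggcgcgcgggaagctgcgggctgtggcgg
Mcm6 (chr1:128359656-128359955, minus strand): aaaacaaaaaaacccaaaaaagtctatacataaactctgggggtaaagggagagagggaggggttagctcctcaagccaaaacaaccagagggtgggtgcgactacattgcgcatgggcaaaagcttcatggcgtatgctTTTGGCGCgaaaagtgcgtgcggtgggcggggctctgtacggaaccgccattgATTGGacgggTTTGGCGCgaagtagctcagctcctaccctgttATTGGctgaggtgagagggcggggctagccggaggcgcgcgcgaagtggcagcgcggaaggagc
Gabra6 (chr11:42321023-42321322, minus strand): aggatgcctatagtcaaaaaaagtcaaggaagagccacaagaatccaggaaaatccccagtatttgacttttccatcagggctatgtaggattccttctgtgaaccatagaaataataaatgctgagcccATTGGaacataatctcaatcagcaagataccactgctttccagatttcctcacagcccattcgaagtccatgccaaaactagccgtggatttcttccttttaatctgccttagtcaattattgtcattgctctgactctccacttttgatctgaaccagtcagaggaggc

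The Mki67 promoter held 2 CHR matches, at -116 and -98 from the start, after CCAAT matches on both strands. The Sgo1 promoter held a CCAAT match alone, past the start at position 3. The Mcm6 promoter held 2 E2F matches and, on the minus strand, CCAAT matches at -57 and -14. Chaf1b had no match to any of these letters, and Gabra6 had a CCAAT match on the minus strand. Among the 26 G2/M and mitosis genes called lower at P14 that had a promoter entry, 19 (73.1%) held CHR letters, against 18.1% of all 27025 promoters. CCAAT letters were found in 20 of these 26 (76.9%) and in 14 of 18 replication genes called lower (77.8%), against 37.9% of all promoters. E2F letters were found in 6 of the 18 replication genes and 3 of 9 G1/S genes called lower (33.3% each), in 0 of the 26 G2/M genes, and in 1.63% of all promoters. Of the 6 mature granule neuron genes called higher with an entry, 0 held CHR or E2F letters and 1 held CCAAT letters. Among all tested members with an entry, called or not, CHR letters were in 71.4% of 35 G2/M genes and 4 of 20 mature granule neuron genes, and E2F letters were in 33.3% of 27 replication genes and 0 of the 20. A match of letters is a description of these windows only.

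Counts in genes came to 26291590 to 36672071 per P7 library and 28778026 to 31115364 per P14 library. Levels are given as CPM, counts scaled to a common library total after TMM normalization, so they compare a gene between libraries and not genes with each other. The P7 libraries varied more among themselves, with a median SD over genes of 0.22 on the log2 scale against 0.12 at P14. The 3 P7 libraries also differed from the 3 P14 libraries in their gene counts relative to their transcript counts. A difference in how reads had been counted was inferred from this and is not stated in the sources used here. For Tsnax, the gene table kept 0.273% or less of the reads over its transcript in each P7 library and 93.9% to 94.2% in each P14 library. Of 12958 genes compared between the gene and transcript tables, 75 lay apart by more than 0.5 (log2) between the P7 and the P14 libraries. Of these, 43 were lower in P7. In the gene table this counting difference and age cannot be told apart, so calls were also read from the transcript table. Leaving those genes out gave 873 genes higher and 686 lower at P14.

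At P14 against P7, edgeR's quasi-likelihood test called 886 of 15259 genes higher (5.81%) and 688 lower (4.51%), where a call is a Benjamini-Hochberg adjusted p (FDR) under 0.05. Among called genes, those that rose moved further than those that fell, which depends in part on the size of change a call needs. The median log2 change was 1.57 among the higher calls and -0.91 among the lower ones, and 743 higher calls (4.87% of genes tested) but 273 lower calls (1.79%) were at least 2-fold. The median over all genes tested was -0.0050. Of 1514 called genes with a tested transcript, 1401 were also called from the transcript table in the same direction and 0 in the opposite one, 766 of them higher (5.29% of 14479 genes tested in both tables) and 635 lower (4.39%). Offsets for GC content and length turned the balance, with 1126 genes higher and 2442 lower (31.6% of calls higher against 56.3%) and a shift of the median of all genes to -0.12. Single libraries mattered: without P14 replicate 2 the fit called 89 genes higher and 36 lower, and without P7 replicate 2 it called 86 and 72. With the P7 and P14 libraries fitted alone, 2257 were higher and 1581 lower, and leaving out any one of those 6 libraries then gave 1112 to 2853 higher and 500 to 2302 lower.

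**Figure D1:**
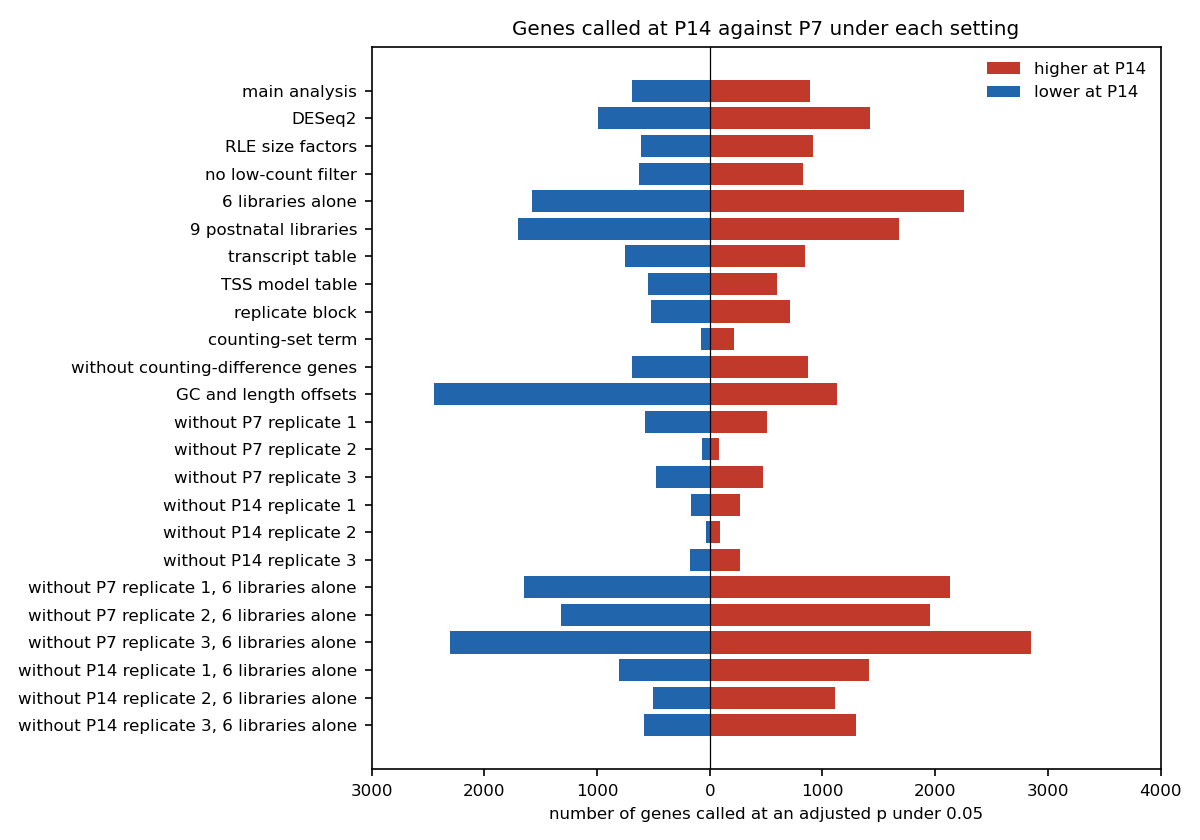
Number of genes called at P14 against P7 at an adjusted p under 0.05 (bars to the right higher, to the left lower) under each setting. The bars shrink most without replicate 2 of either age in the fit of all 15 libraries and with the counting-set term, and lengthen when the 6 libraries are fitted alone.

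A term for the way reads were counted split the libraries into sets by their Tsnax share alone. It rests on E15.5 and tumour libraries alone, left 217 genes higher and 78 lower and kept 9.59% of the calls. It ended the call of 35 of the 42 called genes that the naming rule gives. It also moved changes by over 1.5 times, with log2 changes of 6.99 for Grin2c, 6.36 for Gabra6, -0.96 for Kirrel2 and 0.60 for Npas4. For the same genes in that order, the transcript table without this term gave log2 changes of 4.25, 4.53, -2.66 and 1.96. Age and the way of counting cannot be told apart by this term in P7 and P14, where the libraries of each age fell into 1 set.

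Cell cycle genes were lower at P14 across all phases. Of 97 genes listed, 94 were tested, 63 were called lower and 0 higher, where 4.51% of all genes were called lower. The median log2 change of the 94 was -0.93, and 93 were below 0. All P14 libraries lay below all P7 libraries for 85 of the 94, as for 21.4% of all genes. Summed over the list, the P7 libraries held 12016, 15736 and 14452 CPM and the P14 libraries 7459, 6768 and 7765 CPM. The P7 libraries were all above the P14 libraries, and P7 replicate 1 was the lowest of its age. The mean sum was 1.92-fold higher at P7, and the lowest P14 library still held 6768 CPM of cell cycle transcripts. Calls in the list dropped to 3 without P14 replicate 2 and to 9 without P7 replicate 2. They dropped to 28 when P14 replicate 1 was left out and to 34 when P14 replicate 3 was. With only the P7 and P14 libraries in the fit they numbered 78, and 59 to 83 when one of these was left out.

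**Figure D2:**
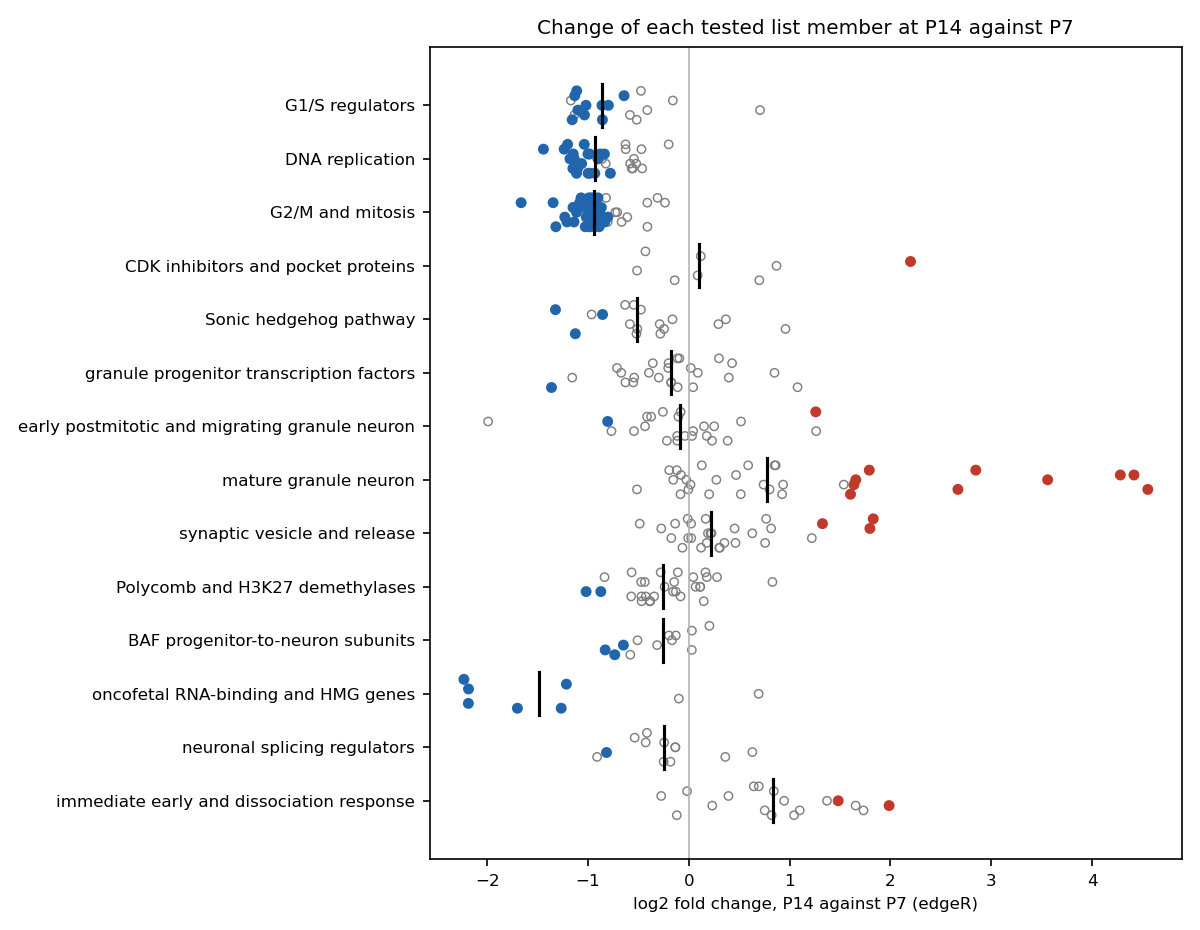
The log2 fold change (P14 against P7, edgeR) of each tested member of 14 gene lists, with filled points for calls (blue lower, red higher), open points for genes not called and a bar at each list's median. The 3 cell cycle lists lie almost wholly below 0, the mature granule neuron list spreads from -0.51 to 4.55, and 6 of 8 tested oncofetal genes lie at -1.21 or lower.

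The G1/S regulators, which carry cells from G1 into S phase, had a median log2 change of -0.86 over 18 tested genes, with 10 called lower and 0 higher. Ccnd1 (cyclin D1, the hedgehog-responsive partner of Cdk4 and Cdk6; ENSMUSG00000070348, mm9 chr7:152115836-152125774) stood at 197, 209 and 305 CPM in P7 replicates 1 to 3 and at 108, 98.98 and 112 CPM in P14 replicates 1 to 3. The groups did not overlap, with P7 replicate 3 the highest. Ccnd1 fell from 237 ± 59.5 to 106 ± 6.73 CPM (SD, n = 3; log2 change -1.16, SE 0.34, edgeR FDR 0.0454). Its reads can include those of LTO1, which overlaps it by 818 bases on the opposite strand, since the strand setting of the counting is not given in the sources used here. Ccnd2, the other D cyclin of precursors, had 903, 909.9 and 1724 CPM at P7 and 856, 702 and 802 CPM at P14. P7 replicate 3 was far above the rest, and Ccnd2 was not called (log2 change -0.58, edgeR FDR 0.142). Ccnd3 was the only tested cell cycle gene above 0, at 21.8 to 35.4 CPM in P7 and 43.6 to 52.02 in P14, and it was not called (log2 change 0.71, edgeR FDR 0.177). The call of Ccnd1 was lost with any single library left out, with log2 changes of -1.30, -1.24 and -0.93 for the 3 P7 libraries in turn and of -1.17, -1.11 and -1.20 for the 3 P14 libraries. With the P7 and P14 libraries fitted alone, Ccnd1 kept its call with any single library left out.

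Downstream of the cyclins, E2f7 and E2f8, repressors of the E2F family that act in S phase, both fell. E2f7 (ENSMUSG00000020185, mm9 chr10:110182524-110224440) had 62.2, 69.5 and 85.4 CPM at P7 and 35.97, 27.4 and 35.8 CPM at P14. No P14 library reached a P7 library, and the log2 change was -1.13 (SE 0.24, edgeR FDR 0.0126). E2f8 was at 45.5 to 74.3 CPM in P7 and at 23.9 to 33.6 in P14 (log2 change -1.11, edgeR FDR 0.0135). Skp2, which targets the inhibitor p27 for destruction, was at 58.7 to 74.3 and 31.8 to 35.8 CPM (log2 change -1.02, edgeR FDR 0.00837). E2f1 and E2f3, activators of the same family, were at log2 changes of -0.41 and -0.16 and were not called, with edgeR FDR of 0.4100 and 0.639. E2f8, Skp2 and other genes outside the naming rule were named after their values were seen. E2f7 was not called without P7 replicate 2 (log2 change -1.16) or P14 replicate 2 (-1.01). E2f8 lost its call without the same libraries, and Skp2 was called with each of the 6 left out.

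The DNA replication genes had a median log2 change of -0.93 over 33 tested genes, with 21 called lower and 0 higher. Chaf1b (a subunit of chromatin assembly factor 1, which places histones on new DNA; ENSMUSG00000022945, mm9 chr16:93884146-93906360) had 47.7, 76.02 and 64.1 CPM in P7 and 21.5, 22.4 and 25.3 CPM in P14. The P14 libraries were close together, and P7 replicate 1, the lowest of its age, was still above them. Chaf1b fell by 1.44 on the log2 scale (SE 0.25, edgeR FDR 0.00837), the largest fall in this list. Mcm6, a subunit of the replicative helicase (ENSMUSG00000026355, mm9 chr1:130228168-130256233), had 212, 281 and 251 CPM in P7 and 104, 97.02 and 115 CPM in P14. It fell from 248 ± 34.6 to 105 ± 8.93 CPM (SD, n = 3; log2 change -1.24, SE 0.21, edgeR FDR 0.00846). Mcm3 of the same helicase had 143, 179 and 133 CPM in P7 and 69.4, 58.8 and 73.01 CPM in P14 (log2 change -1.18, SE 0.22, edgeR FDR 0.00896). Neither helicase gene overlapped between the ages. Rrm2 and Tk1, which supply nucleotides, were at log2 changes of -0.55 and -0.52 and were not called (edgeR FDR 0.0691 and 0.341), and the flattest gene was Rfc4 at a log2 change of -0.20. Mcm4 and Pcna were not analysed here. Mcm3 dropped out of the calls without P7 replicate 2 (log2 change -1.05) or P14 replicate 2 (-1.09).

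Of the G2/M and mitosis genes, 32 of 43 tested were called lower and 0 higher, with a median log2 change of -0.94. Mki67, the standard marker of cycling cells (ENSMUSG00000031004, mm9 chr7:142881471-142908062), had 1314, 2149.9 and 1709 CPM in P7 and 635, 448 and 551 CPM in P14. P7 replicate 2 was the highest and P7 replicate 1 the lowest of its age, still above every P14 library. Mki67 fell from 1724 ± 418 to 545 ± 93.8 CPM (SD, n = 3; log2 change -1.66, SE 0.32, edgeR FDR 0.00952), the largest fall among the 94 cell cycle genes. Tpx2, a spindle assembly factor (ENSMUSG00000027469, mm9 chr2:152673700-152721057), had 232, 474 and 287 CPM in P7 and 134, 121 and 136 CPM in P14 (log2 change -1.35, SE 0.25, edgeR FDR 0.00873). Its P7 values were spread, with replicate 2 highest, and its P14 values were close together. Top2a, the topoisomerase of dividing cells (ENSMUSG00000020914, mm9 chr11:98854257-98885503), had 776, 998 and 788 CPM in P7 and 466, 398 and 473 CPM in P14 (log2 change -0.94, SE 0.20, edgeR FDR 0.0126). Sgo1, which protects cohesin at centromeres, was at 71.4 to 121 CPM in P7 and 32.8 to 38.9 CPM in P14 (log2 change -1.32, edgeR FDR 0.00896). The G2/M genes with the smallest changes were Ccnb1 and Pttg1, at log2 changes of -0.31 and -0.24. For Pttg1, whose product guards sister chromatid separation, P7 replicate 3 (24.9, 33.4 and 10.02 CPM in P7) lay below every P14 library. Mki67 was not called without P7 replicate 2 (log2 change -1.47) or P14 replicate 2 (-1.54). Tpx2 lost its call without P14 replicate 2 (log2 change -1.29). Top2a dropped out of the calls without P7 replicate 2 (log2 change -0.81) or P14 replicate 2 (-0.86). Sgo1 was not called without replicate 2 of either age.

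**Figure D3:**
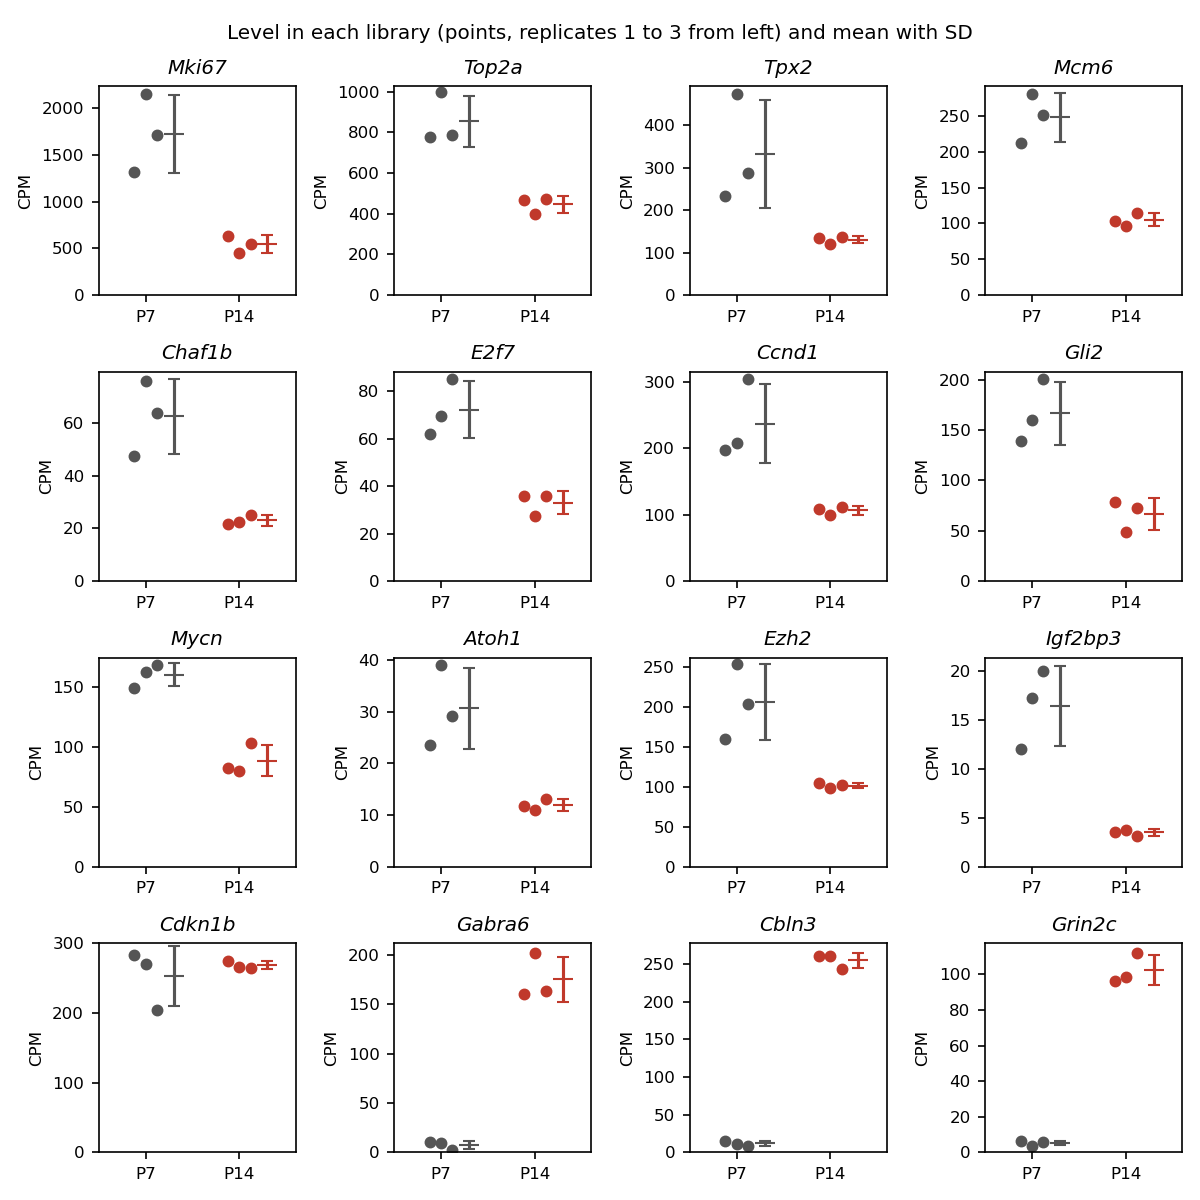
CPM of 16 genes in each P7 (grey) and P14 (red) library, with replicates 1 to 3 from left and the mean with SD beside them, each axis from 0. Cell cycle, hedgehog, Ezh2 and Igf2bp3 levels are lower in all P14 libraries, and Cdkn1b overlaps between the ages. Gabra6, Cbln3 and Grin2c are low in P7 and high in P14.

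The cell cycle sum was also set against the sum of 9 granule lineage markers, leaving out Atoh1, since both come from the same library. The ratio was 1.74, 2.19 and 2.10 in P7 replicates 1 to 3 and 1.10, 1.22 and 1.28 in P14 replicates 1 to 3. The ages did not overlap, so cell cycle transcripts were lower at P14 also per granule marker transcript. The granule markers themselves summed to 6906 to 7208 CPM in P7 and 5577 to 6792 CPM in P14, and of 10 tested only Atoh1 was called.

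Of 8 tested inhibitors of cyclin-dependent kinases and Rb family genes, which hold cells out of the cycle, 1 was called higher and 0 lower. Of all genes 5.81% were called higher, and the median log2 change of the 8 was 0.10. Cdkn1b (p27, the main inhibitor of the granule lineage; ENSMUSG00000003031, mm9 chr6:134870419-134875531) had 284, 271 and 204 CPM in P7 and 275, 267 and 265 CPM in P14. The ages overlapped (log2 change 0.09, SE 0.17, edgeR FDR 0.777), and the log2 change turned to -0.05 without P7 replicate 3. The gene called was Cdkn2b (p15; ENSMUSG00000073802, mm9 chr4:88952198-88956941), at 0.731, 0.579 and 1.502 CPM in P7 and 3.51, 4.55 and 4.71 CPM in P14. All P14 values were above the P7 values, at a low level (log2 change 2.20, SE 0.45, edgeR FDR 0.0121). Cdkn1a (p21) was also higher in each P14 library, at 43.5 to 50.5 against 26.7 to 34.7 CPM, without a call (log2 change 0.70, edgeR FDR 0.0867). Cdkn2d was not analysed here. Cdkn2b was not called without P7 replicate 2 (log2 change 1.94) or P14 replicate 2 (2.14).

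Of 17 Sonic hedgehog pathway genes, all tested, 3 were called lower, where 4.51% of all genes were, and 0 higher, and the median log2 change was -0.51. The 3 were the effector Gli2, the ciliary receptor Gpr161, which restrains the pathway, and Mycn, a target that drives precursor division. Gli2 (ENSMUSG00000048402, mm9 chr1:120730709-120950196) had 139, 160.4 and 201 CPM in P7 and 79.03, 48.9 and 72.1 CPM in P14. P14 replicate 2 was the lowest, and no libraries overlapped (log2 change -1.32, SE 0.33, edgeR FDR 0.0228). Gpr161 (ENSMUSG00000040836, mm9 chr1:167232756-167253061) had 38.3, 36.3 and 34.4 CPM in P7 and 18.6, 14.3 and 17.05 CPM in P14 (log2 change -1.13, SE 0.25, edgeR FDR 0.0155). Mycn (ENSMUSG00000037169, mm9 chr12:12942902-12948720) had 149.6, 163 and 169 CPM in P7 and 82.1, 80.1 and 104 CPM in P14 (log2 change -0.85, SE 0.22, edgeR FDR 0.0284). These genes lay apart between the ages in each library. Gli2 was not called without P7 replicate 2 (log2 change -1.35), P7 replicate 3 (-1.17), P14 replicate 1 (-1.46), P14 replicate 2 (-1.14) or P14 replicate 3 (-1.38). Gpr161 lost its call without P7 replicate 2 (log2 change -1.13), P14 replicate 2 (-1.03) or P14 replicate 3 (-1.14). Mycn dropped out of the calls without P7 replicate 2 (log2 change -0.85), P7 replicate 3 (-0.82), P14 replicate 1 (-0.80), P14 replicate 2 (-0.79) or P14 replicate 3 (-0.98).

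Gli1 and Ptch1 are the targets most used to read hedgehog activity. Gli1 (ENSMUSG00000025407, mm9 chr10:126766945-126778645) had 115, 129.7 and 147 CPM in P7 and 61.9, 63.2 and 75.6 CPM in P14. Every P14 library was below every P7 library, yet Gli1 was not called with the spread of all 15 libraries (log2 change -0.96, SE 0.37, edgeR FDR 0.106). With the P7 and P14 libraries alone the same log2 change of -0.96 had an edgeR FDR of 0.00296, and with the 9 postnatal libraries a log2 change of -0.99 had 0.0196. Ptch1, the receptor (ENSMUSG00000021466, mm9 chr13:63612841-63666828), had 265, 252 and 340.1 CPM in P7 and 244, 175 and 198 CPM in P14 and was not called (log2 change -0.47, edgeR FDR 0.293). Smo, the signal transducer, was at a log2 change of -0.51 (edgeR FDR 0.124), and the co-receptors Boc and Gas1 were at log2 changes of -0.52 and 0.37 (edgeR FDR 0.0907 and 0.534). Cdon, another co-receptor, was at 5.96 to 12.4 CPM in P7 and 14.7 to 19.9 in P14 (log2 change 0.96, edgeR FDR 0.0608). Gli1 overlaps Arhgap9 by 55 bases on the opposite strand.

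Among 25 granule progenitor transcription factors 1 was called lower and 0 higher, a count near the 4.51% of all genes called lower, and the median log2 change was -0.18. It was Atoh1, which keeps precursors in their dividing state (ENSMUSG00000073043, mm9 chr6:64679140-64681227), with 23.6, 39.1 and 29.2 CPM in P7 and 11.7, 10.9 and 13.1 CPM in P14. Its P14 values were close together and all below P7, where replicate 2 was the highest. Atoh1 fell from 30.6 ± 7.85 to 11.9 ± 1.11 CPM (SD, n = 3; log2 change -1.36, SE 0.28, edgeR FDR 0.0125). Neurod1, the next factor in the lineage (ENSMUSG00000034701, mm9 chr2:79292678-79296908), had 1369, 1868 and 1146 CPM in P7 and 1189, 1126 and 1107 CPM in P14, so that the ages overlapped (log2 change -0.36, edgeR FDR 0.448). The lineage factors Zic1 and Zic2 were at log2 changes of -0.09 and 0.04, with Zic1 at 1942 to 2182 CPM in P7 and 1825 to 1992 CPM in P14. Neither was called (edgeR FDR 0.801 and 0.936), and for Zic1 the ages overlapped. Atoh1 was not called without P7 replicate 2 (log2 change -1.15) or P14 replicate 2 (-1.30).

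Of 24 genes of newly postmitotic and migrating granule neurons, all tested, 1 was called higher and 1 lower, near the 5.81% and 4.51% of all genes, with a median log2 change of -0.09. Cntn2 (TAG-1, on the axons of new granule neurons; ENSMUSG00000053024, mm9 chr1:134406002-134439517) had 1791, 1055 and 1913 CPM in P7 and 2239.8, 1569 and 1858 CPM in P14 and was not called (log2 change 0.25, edgeR FDR 0.779). The groups overlapped, with replicate 2 the lowest at both ages. Nrp1, a semaphorin receptor (ENSMUSG00000025810, mm9 chr8:130882973-131029362), had 28.7, 22.2 and 23.8 CPM in P7 and 65.7, 58.6 and 54.5 CPM in P14 and rose by 1.26 on the log2 scale (SE 0.29, edgeR FDR 0.0176). Nrp1 is also expressed by endothelium, whose 8 markers summed to 311 to 377 CPM in P7 and 773 to 802 CPM in P14, and the part of these cells in the rise was not tested. Dab1, the reelin signal adaptor (ENSMUSG00000028519, mm9 chr4:104040195-104417449), had 41.8, 44.4 and 41.4 CPM in P7 and 24.8, 22.3 and 26.04 CPM in P14 (log2 change -0.80, SE 0.17, edgeR FDR 0.0142). Neither gene overlapped between the ages. Dcx, a microtubule protein of migrating neurons, was at a log2 change of -0.41 (edgeR FDR 0.326). Nrp1 was not called without P7 replicate 2 (log2 change 1.18), P14 replicate 1 (1.18) or P14 replicate 2 (1.27). Dab1 lost its call without P7 replicate 2 (log2 change -0.77), P14 replicate 1 (-0.82) or P14 replicate 2 (-0.74).

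The rises among genes of mature granule neurons were largest in receptor subunits and Cbln3. Of 32 tested, 10 were called higher, where 5.81% of all genes were, and 0 lower, and the median log2 change was 0.77. All P14 libraries were above all P7 libraries for 19 of the 32, as for 24.9% of all genes. Gabra6 (the GABA-A receptor alpha 6 subunit of granule neurons; ENSMUSG00000020428, mm9 chr11:42119940-42134553) had 10.3, 9.49 and 2.54 CPM in P7 and 161, 202 and 164 CPM in P14. P7 replicate 3 was below the other P7 libraries, and every P14 library was far above all of them. Gabra6 rose from 7.43 ± 4.25 to 175 ± 22.9 CPM (SD, n = 3; log2 change 4.55, SE 1.11, edgeR FDR 0.02496). Cbln3, a secreted organiser of granule cell synapses (ENSMUSG00000040380, mm9 chr14:56497757-56503093), had 15.1, 11.6 and 9.01 CPM in P7 and 261, 260.0 and 243 CPM in P14 (log2 change 4.42, SE 0.88, edgeR FDR 0.0103). Grin2c, the NMDA receptor subunit of mature granule neurons (ENSMUSG00000020734, mm9 chr11:115110483-115128557), had 6.401, 3.75 and 5.66 CPM in P7 and 96.4, 98.7 and 112 CPM in P14 (log2 change 4.28, SE 1.09, edgeR FDR 0.0252). These genes were low in all P7 libraries and high in all P14 libraries. Grin2c was higher in the younger groups than at P7, with 32.7 to 47.9 CPM at E15.5 and 23.3 to 63.2 CPM at P1. At E15.5 Gabra6 was at 0 CPM and Cbln3 at 2.42 to 3.42 CPM, below every P7 library. Gabra6 was not called without P7 replicate 1 (log2 change 4.82), P7 replicate 2 (4.76), P7 replicate 3 (4.15), P14 replicate 1 (4.61), P14 replicate 2 (4.44) or P14 replicate 3 (4.599). Cbln3 lost its call without P7 replicate 2 (log2 change 4.40). Grin2c dropped out of the calls without P7 replicate 1 (log2 change 4.42), P7 replicate 2 (4.08), P7 replicate 3 (4.33), P14 replicate 1 (4.32), P14 replicate 2 (4.30) or P14 replicate 3 (4.21). With the P7 and P14 libraries fitted alone, Gabra6, Cbln3 and Grin2c kept their calls with any single library left out. In the fit of all 15 libraries other groups were spread for such genes. Gabra6 had 1.12, 12.5 and 102 CPM in P1 replicates 1 to 3, and Grin2c had 45.5, 0.757 and 0.921 CPM in medulloblastoma replicates 1 to 3. The part of this spread in the lost calls was not tested.

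The other mature genes called included Gabrd (log2 change 3.56), Grm4 (2.85), Calb2 (2.67), Etv1 (1.79), Slc17a7 (1.66) and Gabrb2 (1.64). Gabrd, whose delta subunit joins alpha 6 in receptors outside synapses, was at 3.35 to 4.47 CPM in P7 and 41.5 to 49.9 CPM in P14 (edgeR FDR 0.0245). The vesicular glutamate transporter Slc17a7 was at 70.1 to 83.1 CPM in P7 and 239 to 250.2 CPM in P14 (edgeR FDR 0.0467; 0.0516 in the transcript table), while the earlier transporter Slc17a6 was at a log2 change of 0.02 (edgeR FDR 0.983). Grin2b, the NMDA receptor subunit of immature neurons, had 47.96, 36.3 and 145 CPM in P7 and 93.7, 50.9 and 61.6 CPM in P14, with P7 replicate 3 the highest, and was not called (log2 change -0.15, edgeR FDR 0.893). Rbfox3 (NeuN, a nuclear marker of neurons; ENSMUSG00000025576, mm9 chr11:118351078-118772911) had 406, 471 and 551 CPM in P7 and 551, 484 and 526 CPM in P14. Its ages overlapped (log2 change 0.13, edgeR FDR 0.841), and the transcript table gave it a log2 change of -0.01 and GC and length offsets one of -0.13. Of the nuclear factor I genes, Nfia, Nfib and Nfix were at log2 changes of 0.27, -0.08 and -0.12 and none was called. Of the 10 mature genes called, 8 were also called in the transcript table, where Gabrb2 had no tested transcript. Gabrd, Grm4 and Slc17a7 lost their calls with any single library left out, Calb2 without P7 replicate 3 or P14 replicate 2, and Etv1 without P7 replicate 2, and the calls of all 5 held in each 6-library fit with 1 library left out.

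Of 28 synaptic vesicle and release genes, all tested, 3 were called higher, where 5.81% of all genes were, and 0 lower, with a median log2 change of 0.22. Snap25, a membrane fusion protein of nerve endings (ENSMUSG00000027273, mm9 chr2:136539189-136608164), had 218, 191 and 174 CPM in P7 and 672, 721 and 676 CPM in P14 (log2 change 1.83, SE 0.40, edgeR FDR 0.0151). Unc13c, a vesicle priming factor of granule cell axons (ENSMUSG00000062151, mm9 chr9:73328677-73781374), had 10.8, 11.2 and 12.5 CPM in P7 and 43.3, 37.01 and 39.6 CPM in P14 (log2 change 1.80, SE 0.50, edgeR FDR 0.0347). Both were above every P7 library in all P14 libraries. Vamp1, of the same fusion machinery, was at 8.98 to 15.96 CPM in P7 and 25.4 to 30.7 CPM in P14 (log2 change 1.33, edgeR FDR 0.0245). Syp and Syt1, general vesicle proteins, were at log2 changes of 0.30 and 0.35 (edgeR FDR 0.4703 and 0.349). Snap25 was not called without P7 replicate 2 (log2 change 1.82) or P14 replicate 2 (1.80). Unc13c lost its call without P7 replicate 1 (log2 change 1.73), P7 replicate 2 (1.77), P7 replicate 3 (1.86), P14 replicate 1 (1.73), P14 replicate 2 (1.85) or P14 replicate 3 (1.80). Vamp1 kept its call only without P7 replicate 1. With the P7 and P14 libraries fitted alone, Snap25, Unc13c and Vamp1 kept their calls with any single library left out.

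**Figure D4:**
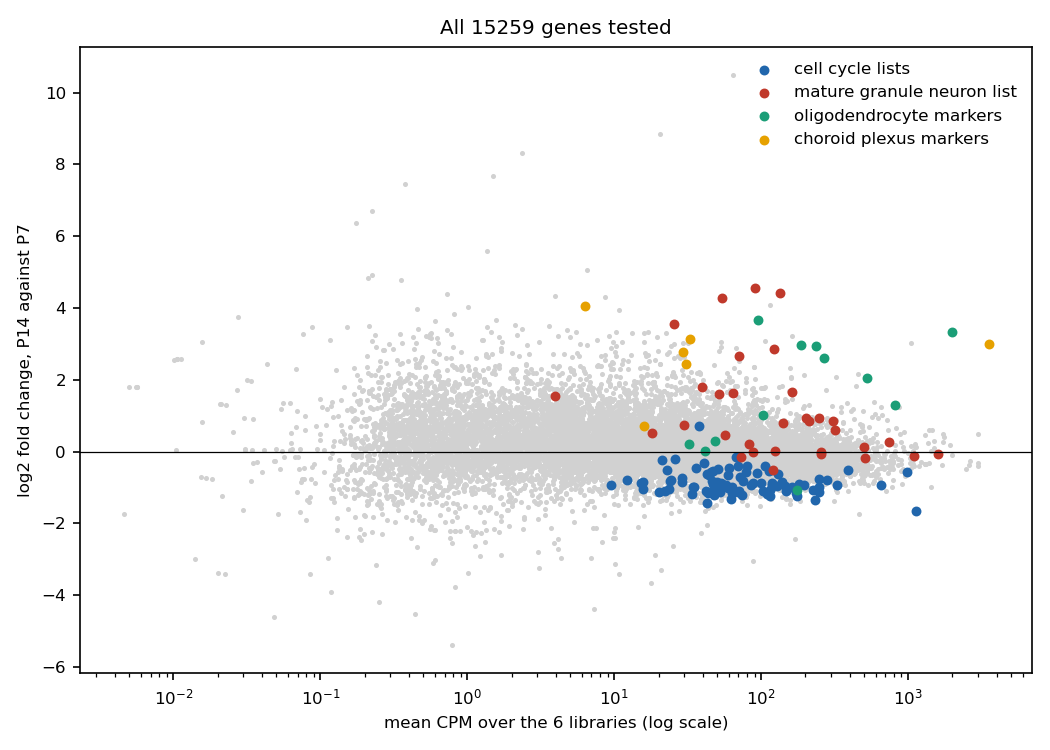
Log2 fold change of P14 against P7 for 15259 tested genes (grey) against mean CPM over the 6 libraries (log axis), with members of 4 lists in colour. Cell cycle genes lie from -1.66 to 0.71 around a median of -0.93. Log2 changes run from -0.51 to 4.55 for mature granule genes, from -1.07 to 3.66 for oligodendrocyte markers and from 0.71 to 4.05 for choroid plexus markers.

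The Polycomb group, which places and reads methylated histone H3K27 and includes Ezh2 of the study's title, had 2 of 30 tested genes called lower and 0 higher (median log2 change -0.26), a count near the 4.51% of all genes called lower. Ezh2, the methyltransferase (ENSMUSG00000029687, mm9 chr6:47480273-47545029), had 159, 254 and 204 CPM in P7 and 105, 97.9 and 102 CPM in P14. The P14 values were nearly equal, and P7 replicate 1 was the nearest to them. Ezh2 fell from 205 ± 47.3 to 101 ± 3.32 CPM (SD, n = 3; log2 change -1.02, SE 0.19, edgeR FDR 0.00873), beside a cell cycle median of -0.93. Its paralog Ezh1 (ENSMUSG00000006920, mm9 chr11:101058703-101087740) had 20.7, 30.9 and 32.5 CPM in P7 and 27.7, 23.9 and 27.8 CPM in P14, which overlapped (log2 change -0.08, edgeR FDR 0.826; log2 change 0.04 without P7 replicate 3). Cbx2, a reader subunit of Polycomb complex 1 (ENSMUSG00000025577, mm9 chr11:118884276-118892584), had 63.1, 87.2 and 81.8 CPM in P7 and 43.3, 37.8 and 45.7 CPM in P14 (log2 change -0.87, SE 0.19, edgeR FDR 0.0147). The Ezh2 partners Eed and Suz12 were at log2 changes of -0.47 and -0.39 and were not called (edgeR FDR 0.151 and 0.2202). The demethylases Kdm6a and Kdm6b were at log2 changes of -0.44 and 0.18 (edgeR FDR 0.232 and 0.837). Ezh2 was not called without P14 replicate 2 (log2 change -0.99). Cbx2 lost its call without P7 replicate 2 (log2 change -0.78), P14 replicate 1 (-0.89) or P14 replicate 2 (-0.80).

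Subunits of the BAF chromatin remodelling complex are exchanged as neural progenitors become neurons. Of 12 tested, 3 were called lower, where 4.51% of all genes were, and 0 higher (median log2 change -0.26). The 3 were the core subunits Smarca4, Smarcc1 and Smarcc2. Smarcc1, at a log2 change of -0.83, was at -0.11 in the transcript table and was not called there (edgeR FDR 0.8804). It also lost its call without P7 replicate 2 or 3 or P14 replicate 2 or 3. Smarca4, the ATPase (ENSMUSG00000032187, mm9 chr9:21420613-21508674), had 571, 536 and 717 CPM in P7 and 459, 283 and 355 CPM in P14 (log2 change -0.73, SE 0.20, edgeR FDR 0.0297). Smarcc2 (ENSMUSG00000025369, mm9 chr10:127896292-127927229) had 623, 709 and 678 CPM in P7 and 475, 380.3 and 427 CPM in P14 (log2 change -0.65, SE 0.18, edgeR FDR 0.0333). In both, P14 replicate 2 was the lowest and replicate 1 the closest to P7. The progenitor subunit Actl6a was at 109 to 121 CPM in P7 and 72.2 to 80.3 in P14 (log2 change -0.58, edgeR FDR 0.0596), and its neuronal counterpart Actl6b was at a log2 change of 0.03 (edgeR FDR 0.952). Smarca4 was not called without P7 replicate 2 (log2 change -0.82), P7 replicate 3 (-0.60), P14 replicate 2 (-0.58) or P14 replicate 3 (-0.71), and, with the P7 and P14 libraries fitted alone, also without P14 replicate 2 (-0.58) or P14 replicate 3 (-0.71). Smarcc2 lost its call without P7 replicate 2 (log2 change -0.61), P7 replicate 3 (-0.64), P14 replicate 1 (-0.73), P14 replicate 2 (-0.57) or P14 replicate 3 (-0.65), and, with the P7 and P14 libraries fitted alone, also without P14 replicate 2 (-0.57) or P14 replicate 3 (-0.65).

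Oncofetal genes are a set of RNA-binding and chromatin proteins of embryonic and tumour cells. Of 8 tested members 6 were called lower, where 4.51% of all genes were, and 0 higher (median log2 change -1.48). Igf2bp3, an mRNA-binding protein (ENSMUSG00000029814, mm9 chr6:49035220-49164953), had 11.98, 17.2 and 20.03 CPM in P7 and 3.57, 3.797 and 3.11 CPM in P14 (log2 change -2.23, SE 0.32, edgeR FDR 0.00465; log2 change -1.98 in the transcript table). It overlaps Malsu1 by 1531 bases on the opposite strand. Hmga2, a DNA-bending protein of stem cells (ENSMUSG00000056758, mm9 chr10:119798331-119913525), was low throughout, with 0.731, 0.993 and 1.27 CPM in P7 and 0.202, 0.271 and 0.167 CPM in P14 (log2 change -2.19, SE 0.43, edgeR FDR 0.009597). Igf2bp3 was called under each of the 22 alternatives that tested it and Hmga2 under each of 23. Lin28b (log2 change -1.70), Igf2bp1 (-2.18), Hmga1 (-1.27) and Igf2bp2 (-1.21) fell too. Igf2bp1 lost its call with any single library left out and was at a log2 change of -1.59 without P7 replicate 3. Igf2bp2 kept its call only without P7 replicate 1, Lin28b only without P7 replicate 1 or 3, and Hmga1 was called without each library. In the 6-library fits Igf2bp1 and Lin28b lost their calls without P14 replicate 2. Igf2 itself, the message that the Igf2bp proteins are named for, was at 213 to 245 CPM in P7 and 299.5 to 426 in P14 and was not called (log2 change 0.69, edgeR FDR 0.114).

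Of 18 immediate early and stress genes, which respond to activity and to dissociation of tissue, 2 were called higher and 0 lower. Of all genes 5.81% were called higher, and the median log2 change of the 18 was 0.83. For 13 of the 18 all P14 libraries were above all P7 libraries, against 24.9% of all genes. Npas4, an activity-induced factor of neurons (ENSMUSG00000045903, mm9 chr19:4984355-4989971), had 13.4, 17.4 and 18.03 CPM in P7 and 58.8, 62.5 and 71.9 CPM in P14 (log2 change 1.99, SE 0.60, edgeR FDR 0.0482). Hspa1b, a heat shock protein (ENSMUSG00000090877, mm9 chr17:35093381-35096183), had 1.17, 0.524 and 1.35 CPM in P7 and 2.23, 2.95 and 3.28 CPM in P14 (log2 change 1.48, SE 0.40, edgeR FDR 0.0318). It shares near-identical sequence with Hspa1a, so its value is uncertain. Fos and Jun were at log2 changes of 0.64 and 0.69 (edgeR FDR 0.579 and 0.256), and Egr1 and Arc at log2 changes of -0.27 and -0.12. The part of handling in these values was not tested. Npas4 was not called without P7 replicate 1 (log2 change 1.84), P7 replicate 2 (2.04), P7 replicate 3 (2.07), P14 replicate 1 (2.05), P14 replicate 2 (2.01) or P14 replicate 3 (1.90). With the P7 and P14 libraries fitted alone, Npas4 kept its call with any single library left out. Hspa1b lost its call without P7 replicate 1 (log2 change 1.58), P7 replicate 2 (1.16), P14 replicate 1 (1.62), P14 replicate 2 (1.45) or P14 replicate 3 (1.36), and, with the P7 and P14 libraries fitted alone, also without P14 replicate 2 (1.45) or P14 replicate 3 (1.36).

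By the naming rule the largest rises fell into groups of known cell types. Gabra6, Cbln3 and Grin2c are the granule neuron genes above. Hapln2, Opalin, Mal and Gjb1 are genes of myelinating oligodendrocytes, and Prlr is a gene of the choroid plexus. Hapln2, a link protein of the nodes of myelinated axons (ENSMUSG00000004894, mm9 chr3:87825983-87831400), had 0.789, 0.193 and 0.116 CPM in P7 and 7.62, 15.3 and 14.9 CPM in P14 (log2 change 5.06, SE 0.91, edgeR FDR 0.00873). Opalin (ENSMUSG00000050121, mm9 chr19:41136964-41151603) had 1.695, 0.441 and 0.308 CPM in P7 and 13.4, 19.7 and 16.3 CPM in P14 (log2 change 4.31, SE 1.06, edgeR FDR 0.0228). Both were under 0.5 CPM in P7 replicates 2 and 3. Mal, a myelin membrane protein (ENSMUSG00000027375, mm9 chr2:127458962-127482431), had 21.2, 9.69 and 7.396 CPM in P7 and 198, 240.3 and 213 CPM in P14 (log2 change 4.09, SE 0.96, edgeR FDR 0.01901). Gjb1 (ENSMUSG00000047797, mm9 chrX:98571717-98580968), a gap junction protein of myelin, went from 1.28 ± 0.592 to 20.1 ± 2.77 CPM (SD, n = 3; log2 change 3.96, edgeR FDR 0.00911), and Prlr (ENSMUSG00000005268, mm9 chr15:10107410-10266764), the prolactin receptor, from 0.734 ± 0.577 to 11.9 ± 2.36 CPM (SD, n = 3; log2 change 4.05, edgeR FDR 0.00884). For each of these the P14 libraries lay above the P7 libraries. Hapln2 was not called without P7 replicate 2 (log2 change 4.73). Opalin lost its call without P7 replicate 2 (log2 change 3.999), P7 replicate 3 (3.94), P14 replicate 1 (4.44), P14 replicate 2 (4.16) or P14 replicate 3 (4.32). Mal dropped out of the calls without P7 replicate 2 (log2 change 3.92), P7 replicate 3 (3.81) or P14 replicate 2 (4.01). Gjb1 was not called without P7 replicate 2 (log2 change 3.82). Prlr lost its call without P7 replicate 2 (log2 change 3.86). Without P7 replicate 1 the log2 change was 6.25 for Hapln2 and 5.39 for Opalin, and without P7 replicate 3 it was 4.85 for Prlr.

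The largest falls were of several kinds. Spp1 (osteopontin, a secreted protein that is also on the microglia list used here; ENSMUSG00000029304, mm9 chr5:104864137-104870069) had 13.6, 31.01 and 14.6 CPM in P7 and 1.55, 2.23 and 1.81 CPM in P14 (log2 change -3.40, SE 0.35, edgeR FDR 0.00121). Spp1 was called under each of the 22 alternatives that tested it. The adhesion genes Nphs1 (ENSMUSG00000006649, mm9 chr7:31244744-31272242) and Kirrel2 (ENSMUSG00000036915, mm9 chr7:31232555-31242534) are neighbours on chromosome 7 and fell together. Nphs1 had 14.7, 17.3 and 22.03 CPM in P7 and 1.85, 1.27 and 3.08 CPM in P14 (log2 change -3.12, SE 0.44, edgeR FDR 0.00465), and Kirrel2 had 43.1, 43.1 and 43.7 CPM in P7 and 7.28, 4.94 and 8.79 CPM in P14 (log2 change -2.63, SE 0.51, edgeR FDR 0.00952). Kirrel2 was nearly constant among the P7 libraries.

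Slc7a11, the cystine transporter that supplies glutathione synthesis (ENSMUSG00000027737, mm9 chr3:50168858-50247535), had 359, 127 and 370.1 CPM in P7 and 53.1, 39.3 and 64.3 CPM in P14 (log2 change -2.45, SE 0.54, edgeR FDR 0.0153; log2 change -1.79 in the transcript table). P7 replicate 2 was far below the other P7 libraries and still above P14. Optc, an extracellular matrix protein (ENSMUSG00000010311, mm9 chr1:135793776-135804576), went from 12.4 ± 5.93 to 1.59 ± 0.126 CPM (SD, n = 3; log2 change -2.96, edgeR FDR 0.00465). Fibcd1 (ENSMUSG00000026841, mm9 chr2:31668810-31701525) went from 14.1 ± 8.301 to 2.43 ± 0.242 CPM (SD, n = 3; log2 change -2.53, edgeR FDR 0.00911), with P7 replicate 3 the highest. Scube2, a carrier that releases Sonic hedgehog (ENSMUSG00000007279, mm9 chr7:116942190-117009100), had 13.6, 11.8 and 24.1 CPM in P7 and 4.45, 1.93 and 2.98 CPM in P14 (log2 change -2.40, SE 0.47, edgeR FDR 0.009597). None of these genes overlapped between the ages. Kirrel2 was not called without P14 replicate 2 (log2 change -2.43). Fibcd1 lost its call without P14 replicate 2 (log2 change -2.53). Slc7a11 dropped out of the calls without P14 replicate 1 (log2 change -2.46) or P14 replicate 2 (-2.28). Scube2 was not called without P14 replicate 2 (log2 change -2.15). Without P7 replicate 3 the log2 change of Fibcd1 was -1.94.

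Summed markers of several other cerebellar cells differed between the ages as well. Beside the counts of markers called, 5.81% of all genes were called higher and 4.51% lower. The 12 oligodendrocyte markers summed to 2307, 1442 and 1157 CPM in P7 and 7105, 7677 and 7306 CPM in P14, with 4 called higher (among them Mog, Cldn11 and Cnp) and 1 lower. Mog, a protein of the outer myelin surface, had 19.9, 11.98 and 9.94 CPM in P7 and 157, 196 and 176 CPM in P14 (log2 change 3.66, edgeR FDR 0.0142), while Pdgfra, of oligodendrocyte precursors, was lower, at 205 to 289 CPM in P7 and 98.9 to 122 CPM in P14 (log2 change -1.07, edgeR FDR 0.0476). Pdgfra lost its call with any single library left out, Mog and Cldn11 without replicate 2 of either age, and Cnp without any but P7 replicate 1. The 6 choroid plexus markers summed to 22.4, 484 and 1976 CPM in P7 and 5777, 8496 and 5124 CPM in P14, and most of that was Ttr. The P7 libraries were far apart in this sum and all below P14, and Ttr was not called (edgeR FDR 0.207). Endothelial markers, with 2 of 8 called higher, summed to 311 to 377 CPM in P7 and 773 to 802 CPM in P14. Pericyte and meningeal markers, with 3 of 10 called higher, summed to 392.1 to 653 CPM in P7 and 941 to 1129 CPM in P14. Astroglial markers, with 1 of 12 called higher (8.33%, near the share of all genes), summed to 2572 to 5041 CPM in P7 and 4559 to 5879 CPM in P14, which overlapped. With single libraries left out, 0 or 1 endothelial, 1 to 3 pericyte and meningeal and 1 or 2 astroglial markers were called higher. No marker of any list was at 0 in a whole age group. The part of these cells in the mature neuron, synaptic and immediate early values was not tested.

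**Figure D5:**
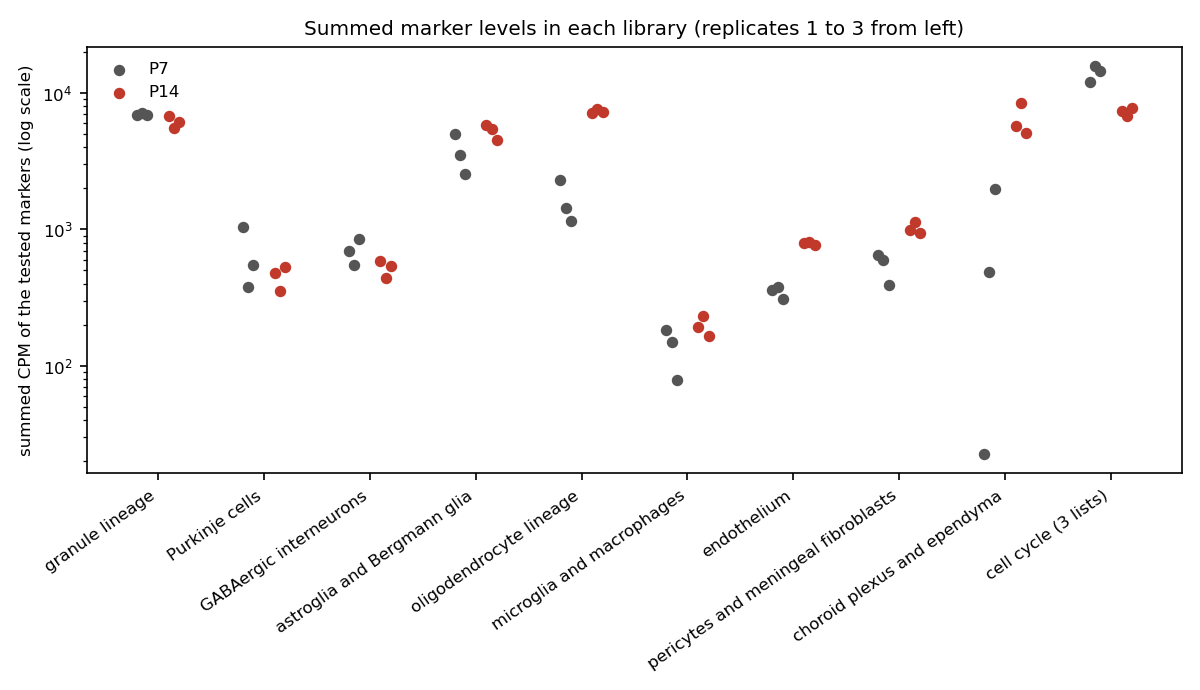
Summed CPM (log axis) of the tested markers of 9 cell types and of the cell cycle lists in each P7 (grey) and P14 (red) library. Granule marker sums lie between 5577 and 7208 CPM in both ages, the oligodendrocyte, endothelial and choroid plexus sums are higher in every P14 library, and the cell cycle sum is lower in every P14 library.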

How the data were processed

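Poly(A) RNA was sequenced in 15 mouse libraries, and 6 of them, 3 at P7 and 3 at P14, were compared. The authors deposited raw read counts per gene, per transcript and per transcription start site (TSS) model, none normalized. Trimmomatic, TopHat, StringTie, HTSeq and mm9 are named per the submitters' processing notes, without versions or strand setting. Summary lines that name no gene stayed out of totals and tests, and 45.4% to 55.4% of the records of the P7 and P14 libraries were counted in genes. Symbols were matched for 20358 of 21889 genes, and 10 of 418 list members were not matched and not analysed here.

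Low genes were removed by filterByExpr at a minimum count of 10 and a minimum total of 15. The rest were scaled with TMM and tested with edgeR 4.0.16 in R 4.3.3, by a quasi-likelihood fit of all 15 libraries with a mean for each group (10 residual degrees of freedom). Its p-values were adjusted over all 15259 genes with the Benjamini-Hochberg method. DESeq2 1.42.0, RLE size factors, no filter, the other tables, fewer libraries, a replicate block, a term for the counting set and GC and length offsets were alternatives. The main fit was also run on simulated counts, whose levels and spread were taken from these data.

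Members, lists and the naming rule were chosen with earlier results of these data known. The rule names 18 fixed genes, the 2 largest changes per list and direction called in both tables, and the 8 largest per direction with a mean of at least 5 CPM, called in both tables and with no overlap. CPM values are mean ± SD over n = 3 or single libraries. Intervals for depth were not computed, since replicates give the error. A few genes that the rule or the lists give are not reported here.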

Additional observations from a re-analysis of the deposited data

How the results depend on the processing

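Of the 886 higher and 688 lower calls, those also called in an alternative had the same direction there, but the number of calls differed. Direction was compared only for genes called in both fits. These were 151 with the counting-set term and 125 without P14 replicate 2. DESeq2 gave 1426 higher and 992 lower, the 6 P7 and P14 libraries alone 2257 and 1581, the 9 postnatal libraries 1675 and 1698, and GC and length offsets 1126 and 2442. The counting-set term left 217 higher and 78 lower, 139 called in both the gene and the transcript table, 6 cell cycle genes, 0 Sonic hedgehog genes and 2 mature granule neuron genes, and the cause was not tested.

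Leaving out single libraries gave 86 to 507 genes higher, 36 to 570 lower, 119 to 921 called in both tables, 3 to 56 cell cycle genes lower, 0 to 3 Sonic hedgehog genes lower and 2 to 5 mature granule neuron genes higher. The lowest counts came without P7 or P14 replicate 2. With the 6 libraries fitted alone, an alternative added after seeing the data, 2130, 1952 and 2853 genes were higher and 1650, 1318 and 2302 lower without P7 replicates 1 to 3, and 1413, 1112 and 1294 were higher and 805, 500 and 580 lower without P14 replicates 1 to 3. Those fits called 1017 to 1499 genes in both tables, 59 to 83 cell cycle genes, 4 to 7 Sonic hedgehog genes and 11 to 19 mature granule neuron genes. Of the called genes of the naming rule, only Smarca4, Smarcc2, Elavl2 and Hspa1b lost their calls in them, without P14 replicate 2 or 3. Sonic hedgehog genes called lower numbered 7 with the 6 libraries alone, 5 with 9 postnatal libraries and 7 with GC and length offsets, and mature genes called higher numbered 6 in the TSS model table.

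Deviations of the same-numbered P7 and P14 libraries correlated at -0.072, 0.251 and 0.13. Only the libraries numbered 2 correlated best with their own number on both sides. With 3 libraries per age these correlations cannot decide whether replicate numbers pair the samples. A replicate block gave 711 higher, 523 lower and 54 cell cycle genes lower, and the edgeR FDR was 0.06802 for Ccnd1, 0.0528 for Unc13c, 0.0527 for Hspa1b, 0.0591 for Slc17a7, 0.0677 for Igf2bp1 and 0.0561 for Foxp2.

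Of the genes of the naming rule that were not called, 4 changed sign in some alternatives. Cdkn1b ranged from -0.046 (without P7 replicate 3) to 0.15 with single libraries left out, and was -0.047 without P7 replicate 3 in the 6-library fit. Cntn2 was -0.74 with the counting-set term. Rbfox3 was -0.0090 in the transcript table, -0.27 with that term, -0.13 with GC and length offsets and -0.0018 without P7 replicate 1 in the 6-library fit. Ezh1 was 0.18 with that term, ranged from -0.29 to 0.036 (without P7 replicate 3) with single libraries left out, and was 0.035 without P7 replicate 3 in the 6-library fit. GC and length were known for 14494 of 15259 tested genes. Depth limits low genes most, such as Hmga2 and Cdkn2b.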

Other observations

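Some markers of GABAergic interneurons and 1 of 10 Purkinje cell markers were called lower at P14, where 4.51% of all genes were. Of 9 tested interneuron markers 4 were called lower and 0 higher, among them Pax2, Lhx5 and Sorcs3. Pax2, a factor of young interneurons, had 39.5, 41.4 and 109 CPM in P7 and 23.9, 14.6 and 21.8 CPM in P14 (log2 change -1.65, edgeR FDR 0.01901), and Lhx5 had 42.96, 40.2 and 84.8 CPM in P7 and 18.6, 17.9 and 26.4 CPM in P14 (log2 change -1.42, edgeR FDR 0.02301). P7 replicate 3 was the highest for both genes. Pax2 was not called, at a log2 change of -1.01, without P7 replicate 3, nor without any single P14 library, and Lhx5 was not called without P7 replicate 2 or 3 or P14 replicate 1 or 2. In the 6-library fits both lost their calls without P14 replicate 1 or 2. Sorcs3 lost its call with any single library left out. Gad1, which makes GABA, was at a log2 change of -0.77 with an edgeR FDR of 0.05200. Of 10 Purkinje cell markers only Foxp2 was called, lower (log2 change -0.96, edgeR FDR 0.0444), and their sum was 1047, 377 and 545 CPM in P7 and 478, 355 and 533 CPM in P14, which overlapped. Foxp2 lost its call with any single library left out, and 4 of the 10 Purkinje cell markers had log2 changes above 0. Of 6 markers of unipolar brush and nuclear cells, Slc17a8 was called lower (-2.89) and Lmx1a higher (2.18), both log2 changes. Lmx1a is also expressed in choroid plexus. Lmx1a kept its call only without P7 replicate 3 (log2 change 2.81), and Slc17a8 was called without each library. Of 12 microglia and macrophage markers only Spp1 was called, and the others had log2 changes of -0.27 to 1.08.

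Of 12 tested neuronal splicing regulators 1 was called lower, where 4.51% of all genes were, and 0 higher, with a median log2 change of -0.25. Elavl2, an RNA-binding protein of neurons (mm9 chr4:90917454-91043154), had 248, 388 and 266 CPM in P7 and 182, 156 and 173 CPM in P14 (log2 change -0.82, SE 0.20, edgeR FDR 0.0207). Ptbp2, another splicing regulator of neurons, had 296, 566 and 207 CPM in P7, with replicate 2 far above the others, and 197, 179 and 193 CPM in P14 (log2 change -0.91, edgeR FDR 0.09001). Elavl2 was not called without P7 replicate 2 (log2 change -0.60), P14 replicate 1 (-0.87), P14 replicate 2 (-0.76) or P14 replicate 3 (-0.83), and, with the P7 and P14 libraries fitted alone, also without P14 replicate 2 (-0.76) or P14 replicate 3 (-0.83).

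The ratio of the cell cycle sum to the 9 granule markers can be set beside the other libraries. It was 1.51 to 2.88 at E15.5, 1.82 to 3.40 at P1, 1.74 to 2.19 at P7, 1.10 to 1.28 at P14 and 4.26 to 6.31 in medulloblastoma, without a test. P14 was the group whose highest library lay below the lowest of each other group.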
